A study of Populus tremula x Populus alba with 2 samples.

Results

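The genes described here are 7 poplar regulators of the vascular cambium, the layer of dividing cells between wood and bark. They were chosen by gene identifier for their known roles, and are 7 of the 41336 rows in the deposited expression table. They comprise a pair of genes for the receptor kinase PXY (Potri.003G107600, called PXYa here, and Potri.001G126100, PXYb), a pair for the homeobox factor WOX4 (Potri.014G025300, WOX4a, and Potri.002G124100, WOX4b), the knotted-type homeobox genes ARBORKNOX1 (Potri.011G011100) and ARBORKNOX2 (Potri.002G113300), and a homologue of AINTEGUMENTA (Potri.002G114800). The table holds no gene names or annotation, so these names rest on the identifiers alone and were not checked against sequence. No protein or promoter sequence of these genes was used here.

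The study asked how wood changes in hybrid aspen (Populus tremula x Populus alba) that makes MOMT4, an engineered enzyme which methylates the building blocks of lignin so that they cannot enter the polymer. Expression was compared between the transgenic line MOMT4-0, in which the bean PAL2 promoter drives MOMT4, and control plants labelled WT. PAL2 encodes the entry enzyme of lignin synthesis, and its promoter is active where xylem begins to differentiate, next to the cambium. Coppiced plants of both lines were grown in a greenhouse for about 2 months, internodes 1 to 15 from the top were taken without bark, and about 100 mg of tissue pooled from 2 to 3 plants gave 1 library per line. MOMT4-0 is a single transgenic line. With 1 library per line no SD, standard error or p value can be given, and every difference below is one between these libraries, not one shown for the lines.

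The values are RPKM, reads scaled to exon length and to the mapped reads of each library, which puts genes on a common scale. Reads of this hybrid were aligned to the P. trichocarpa genome with 1 mismatch allowed, so genes that differ more from that genome may lose more reads. Levels, ranks and shares compared between genes below carry this limit, which was not tested. The columns are headed MOMT4 and WT, as the samples are titled, although the codes q1 and q2 stand the other way round in the sample descriptions, and the headings decide here. A row for a sequence outside the poplar genes, presumably MOMT4 itself, stood at 1221.8 RPKM in the column headed MOMT4 and 4.79 RPKM in that headed WT. The spacing of low values puts the depth used for scaling near 9463000 reads for MOMT4-0 and 8753000 for WT. Differences are given as log2 of MOMT4-0 over WT after adding 1 RPKM to each value, wherever the 2 values averaged 1 RPKM or more. This filter left 22944 poplar genes with a median log2 ratio of -0.0057.

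In the cambium, stem cells divide to give xylem (wood) on the inner side and phloem on the outer side. In Arabidopsis, phloem cells release a short CLE peptide, TDIF, which binds PXY on cambial cells. PXY in turn maintains WOX4, which promotes division, and restrains the passage of cambial cells into xylem. Knotted-type homeobox genes such as ARBORKNOX1 and ARBORKNOX2, the poplar relatives of SHOOT MERISTEMLESS and BREVIPEDICELLUS, act in keeping meristem cells undifferentiated, and AINTEGUMENTA, an AP2-type factor, promotes cell proliferation. When a stem is debarked it usually parts near the cambium, so cambial cells may go with either side.

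All 7 regulators were expressed well above the filter in both libraries, and none differed much between them. The levels ran from 19.1 to 255.3 RPKM in MOMT4-0 and from 19.1 to 262.7 RPKM in WT. 0 of the 7 were at least 2-fold apart, where 1.77% of all genes past the filter were, and 0 of the 7 were 1.5-fold apart, where 7.07% of all genes were. 6 of the 7 were lower in MOMT4-0, by small amounts, where 50.9% of all genes past the filter were lower by any amount. The log2 ratios of the 7 ran from -0.29 to 0.0011, with a median of -0.10. Summed over the 7, the level was 614.9 RPKM in MOMT4-0 and 660.5 RPKM in WT, a ratio of 0.931. ARBORKNOX2 alone made up 41.5% of this sum in MOMT4-0 and 39.8% in WT, and without it the ratio was 0.904. In pooled tissue, fewer cambial cells and less of these RNAs per cell cannot be told apart.

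**Figure D1:**
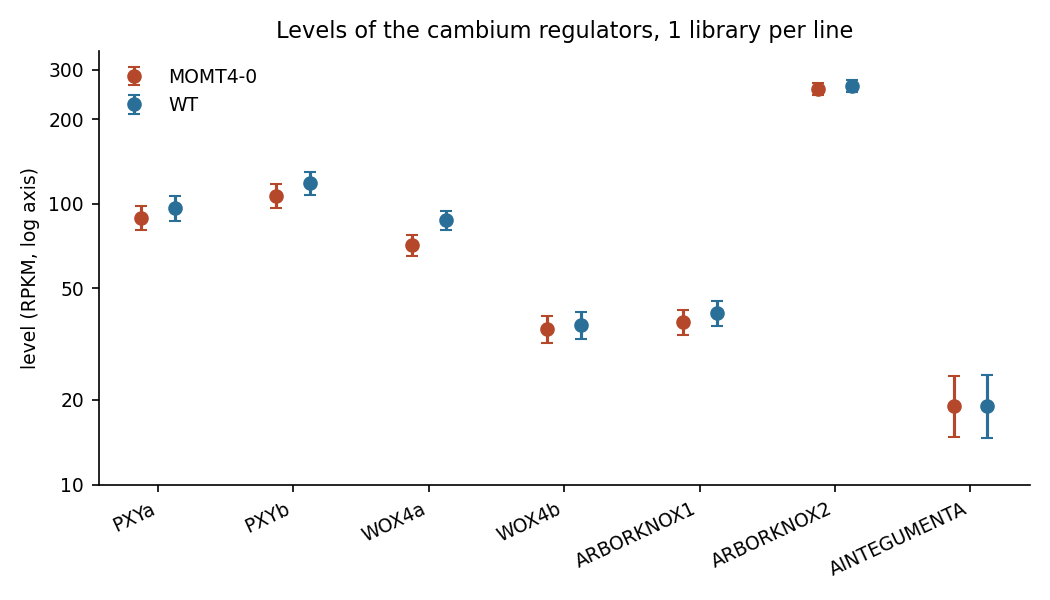
Levels of the 7 cambium regulators in RPKM, on a log axis, with MOMT4-0 left of WT for each gene. Points are the single library of each line and bars are 95% Poisson intervals at the fewest reads that fit the values, so they cover counting error only. These are the widest bars that the values allow. The intervals of the 2 libraries overlap for every gene but WOX4a, which had 71.2 RPKM in MOMT4-0 and 87.1 RPKM in WT.

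The receptor genes PXYa and PXYb were among the more abundant members. PXYa had 89.2 RPKM in MOMT4-0 and 96.1 RPKM in WT, a log2 ratio of -0.11. It lies on chromosome 3 from 13147012 to 13151423. PXYb had 106.6 RPKM in MOMT4-0 and 118.0 RPKM in WT, a log2 ratio of -0.15, and lies on chromosome 1 from 10220375 to 10224788. Both copies were thus lower in MOMT4-0 by similar amounts. They ranked 1360 (PXYa) and 1090 (PXYb) of 41333 poplar genes in MOMT4-0, and 1230 and 948 in WT.

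The table gives no read counts, but the values limit them. Where reads are counted whole, the ratio of a gene's values in the libraries, once corrected for depth, is a ratio of whole numbers. Of 6458 rows with at most 60 reads by their span, 85.0% came within 1e-05 of such a ratio, in relative terms. For PXYa the fewest reads that give its values are 396 in MOMT4-0 and 395 in WT, and if its whole span were exon the reads would number 3540 and 3531. The fewest reads are a lower limit set by the 6 significant digits of the values, not an estimate. They can lie far under the most: for the cellulose synthase gene CesA4, described below, the limits were 83 and 14273 reads in MOMT4-0. At the fewest reads, which give the widest interval, the ratio of PXYa in MOMT4-0 over WT was 0.927, and its 95% counting interval ran from 0.805 to 1.07 (Clopper-Pearson, exact, for the division of reads between libraries). For PXYb, with at least 421 reads in MOMT4-0 and 431 in WT, the ratio was 0.904 (0.788 to 1.04). Neither of these widest intervals lies wholly under 1. At the most reads both would, at 0.885 to 0.972 for PXYa and 0.866 to 0.943 for PXYb. Whether counting error spans these differences thus depends on where the reads lie between these limits, which the values do not give. These intervals cover counting error only, not differences between plants or pools.

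WOX4, the homeobox factor downstream of PXY, held the largest difference of the 7. WOX4a had 71.2 RPKM in MOMT4-0 and 87.1 RPKM in WT, a log2 ratio of -0.29. The ratio was 0.818 with an interval of 0.727 to 0.919, at the fewest reads of 540 in MOMT4-0 and 611 in WT. At the fewest reads this was the only one of the 7 intervals that did not reach 1. At the most reads 4 of 7 did not: PXYa, PXYb, WOX4a and ARBORKNOX2. The share of all genes with such intervals was not computed, so these counts have no background to be read against. The interval of WOX4a at the most reads was 0.746 to 0.894, so for WOX4a counting error alone does not span the difference between the libraries. A difference of this size was common, however: 16.9% of the 7318 genes with mean levels between those of AINTEGUMENTA and ARBORKNOX2 were at least as far apart in either direction. WOX4a stood lower than all but 13.4% of the genes past the filter. Its sister WOX4b had 35.8 RPKM in MOMT4-0 and 36.9 RPKM in WT, a log2 ratio of -0.045 and a ratio of 0.969 (0.828 to 1.13). At the most reads the interval of WOX4b was 0.846 to 1.11. WOX4a lies on chromosome 14 from 2169818 to 2171379 and WOX4b on chromosome 2 from 9309765 to 9311320, with spans of 1562 and 1556 bases.

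ARBORKNOX2, the relative of BREVIPEDICELLUS, was the most abundant of the 7. It had 255.3 RPKM in MOMT4-0 and 262.7 RPKM in WT, a log2 ratio of -0.041, and ranked 309 in MOMT4-0 and 296 in WT among the poplar genes. With at least 1591 reads in MOMT4-0 and 1514 in WT, its ratio was 0.972 (0.905 to 1.04), the tightest interval of the 7. ARBORKNOX1, the relative of SHOOT MERISTEMLESS, had 37.8 RPKM in MOMT4-0 and 40.7 RPKM in WT, a log2 ratio of -0.10 and a ratio of 0.930 (0.806 to 1.07). At the most reads the interval of ARBORKNOX1 was 0.865 to 1.00, just reaching 1. ARBORKNOX2 lies on chromosome 2 from 8461980 to 8468320 and ARBORKNOX1 on chromosome 11 from 844486 to 848858.

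The AINTEGUMENTA homologue was the least abundant member and the most alike between the libraries. It had 19.1 RPKM in MOMT4-0 and 19.1 RPKM in WT, a log2 ratio of 0.0011, and lies on chromosome 2 from 8642603 to 8647364. Its fewest reads are 66 in MOMT4-0 and 61 in WT, against at most 822 and 759. Its ratio of 1.00 thus carries the interval 0.696 to 1.44 at the fewest reads, the widest of the 7 there, and 0.907 to 1.11 at the most. At the most reads the interval of WOX4b was wider, at 0.846 to 1.11. The AINTEGUMENTA homologue was the only member not lower in MOMT4-0. Of the genes within the same range of levels, 99.5% were at least as far apart.

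**Figure D2:**
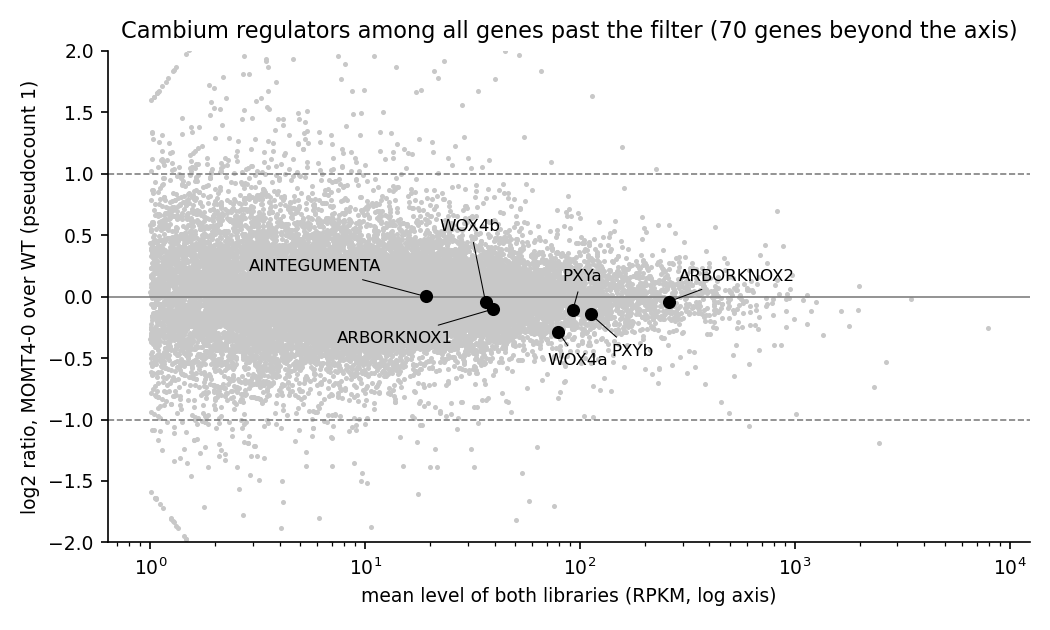
Log2 ratio of MOMT4-0 over WT (pseudocount 1 RPKM) against the mean RPKM of both libraries on a log axis. Grey points are the 22944 poplar genes past the filter, 70 of them beyond the vertical axis, black points are the 7 cambium regulators, and dashed lines mark 2-fold. The 7 lie between -0.29 and 0.0011, inside the grey cloud.

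Set against genes of like abundance, none of the 7 stood out in the size of its difference. For the 7318 genes with a mean between 19.1 and 259.0 RPKM the log2 ratios centred on -0.0093, and the central 95% of them lay between -0.44 and 0.49. 44 of them, or 0.601%, were at least 2-fold apart, and 52.3% were lower in MOMT4-0. All 7 regulators lay within the central 95%. Their shares of genes at least as far apart were 16.9% for WOX4a, 45.8% for PXYb, 57.4% for PXYa, 58.9% for ARBORKNOX1, 80.6% for WOX4b, 82.4% for ARBORKNOX2 and 99.5% for AINTEGUMENTA.

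The order of the 7 levels was the same in both libraries: ARBORKNOX2, PXYb, PXYa, WOX4a, ARBORKNOX1, WOX4b and AINTEGUMENTA, from high to low. The highest level was 13.4 times the lowest in MOMT4-0 and 13.8 times in WT. Not every step in this order was larger than counting error at the fewest reads. ARBORKNOX1 and WOX4b overlapped in both libraries, at 34.2 to 41.7 RPKM against 32.0 to 39.8 RPKM in MOMT4-0 and 36.7 to 44.9 RPKM against 33.0 to 41.2 RPKM in WT (exact Poisson 95% intervals). PXYb and PXYa overlapped in MOMT4-0 (96.6 to 117.3 RPKM and 80.6 to 98.4 RPKM) but not in WT (107.1 to 129.6 RPKM and 86.9 to 106.1 RPKM). PXYa and WOX4a overlapped in WT, where WOX4a had 80.4 to 94.3 RPKM, but not in MOMT4-0, where WOX4a had 65.3 to 77.5 RPKM. ARBORKNOX2 at the top and AINTEGUMENTA at the bottom were apart from their neighbours in both libraries. More reads would give narrower intervals, which were not computed for the levels. The overlaps thus hold at the lower limit of reads only and do not show that the order is unresolved.

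The shares of the copies within each pair were close in the libraries. PXYb gave 54.5% of the summed PXY level in MOMT4-0 and 55.1% in WT, so the receptor copies had nearly even levels. WOX4a gave 66.6% of the summed WOX4 level in MOMT4-0 and 70.2% in WT, a difference of -3.67 percentage points. ARBORKNOX2 gave 87.1% of the summed level of the ARBORKNOX genes in MOMT4-0 and 86.6% in WT. The ARBORKNOX genes are relatives with different Arabidopsis counterparts, whereas the PXY and WOX4 pairs are copies of 1 gene each.

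The ratio of the copies differed most between the libraries in the WOX4 pair. WOX4a stood at 1.99 times WOX4b in MOMT4-0 and at 2.36 times in WT, and the quotient of these was 0.844 with an interval of 0.693 to 1.03 (exact conditional interval on the fewest reads), or 0.718 to 0.993 at the most reads. Whether counting error spans this difference therefore depends on the reads behind the values, which were not recovered. The same quotient for PXYb over PXYa was 0.974 (0.799 to 1.19 at the fewest reads and 0.914 to 1.04 at the most), and for ARBORKNOX2 over ARBORKNOX1 it was 1.05 (0.891 to 1.23 and 0.968 to 1.13). The PXY and ARBORKNOX intervals contain 1 at both limits, which does not show that the copies kept equal shares.

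Summed by pair, PXY had 195.7 RPKM in MOMT4-0 and 214.1 RPKM in WT, WOX4 had 107.0 RPKM in MOMT4-0 and 124.0 RPKM in WT, and the ARBORKNOX genes had 293.1 RPKM in MOMT4-0 and 303.3 RPKM in WT. The ratios were 0.914 for the receptor, 0.863 for its target WOX4 and 0.966 for the ARBORKNOX genes. Receptor transcripts outnumbered WOX4 transcripts per length by 1.83 to 1 in MOMT4-0 and by 1.73 to 1 in WT.

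**Figure D3:**
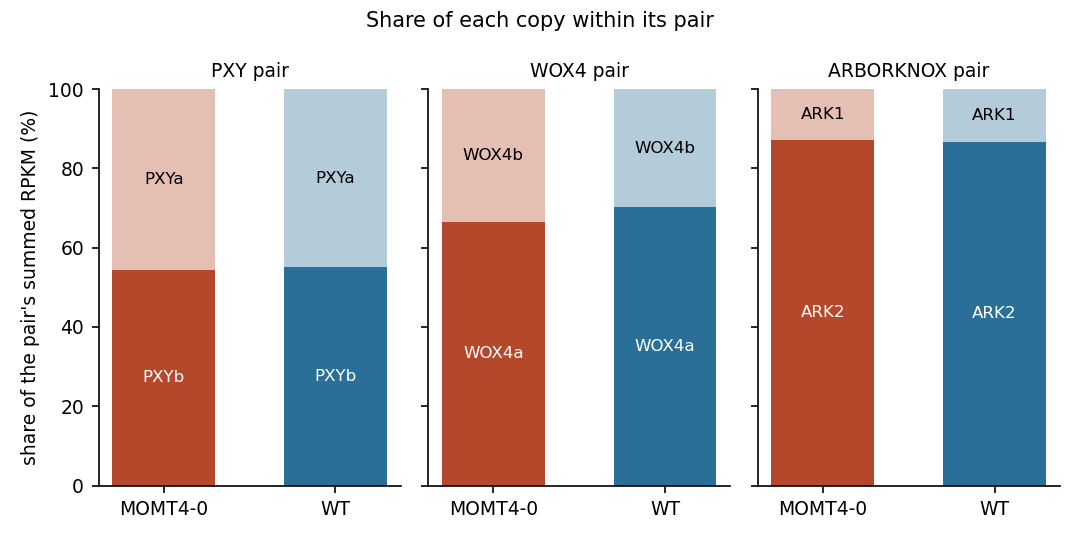
Share of the summed RPKM that each gene gave within the PXY, WOX4 and ARBORKNOX pairs, in percent, with MOMT4-0 left of WT. The full colour is the more abundant gene of the pair and the pale colour the other. WOX4a gave 66.6% in MOMT4-0 and 70.2% in WT, and the other shares differed by less than 1 percentage point.

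3 of the 7 genes share a stretch of chromosome 2. ARBORKNOX2 and AINTEGUMENTA are 174 kb apart with 14 rows between them, and WOX4b follows 662 kb further on, after 92 rows. No member overlaps another row of the table, so no neighbour's reads were counted over the same positions. The genes around a member give a local comparison, taken as the 10 genes past the filter on each side. Around ARBORKNOX2 their median log2 ratio was -0.15 and 13 of 20 were lower in MOMT4-0, and around ARBORKNOX1 the median was -0.15 with 16 of 20 lower. Around PXYa, PXYb, WOX4a, WOX4b and AINTEGUMENTA the medians were 0.089, -0.0021, 0.011, 0.032 and 0.063, in that order. The ratios of ARBORKNOX1 and ARBORKNOX2 were thus nearer 0 than the medians of the genes around them, while PXYa, PXYb and WOX4a lay below their surroundings by more than 0.1. The part of chromosome position in these ratios was not tested.

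Genes that mark other zones of the stem were set beside the 7, to describe how alike the pools were in tissue. Their names, like those of the 7, rest on identifiers. CDC2 (Potri.016G142800), a cyclin-dependent kinase of dividing cells, had 14.4 RPKM in MOMT4-0 and 13.6 RPKM in WT, a log2 ratio of 0.081. SUS6 (Potri.004G081300), a sucrose synthase that marks phloem, had 24.5 RPKM in MOMT4-0 and 21.9 RPKM in WT, a log2 ratio of 0.15, so that a phloem marker was present in the debarked stems of both lines. SUS6 overlaps another row. The cambium regulators were mostly lower in MOMT4-0 and these markers of division and phloem higher. At the fewest reads the counting intervals of the CDC2 and SUS6 ratios contain 1 (0.832 to 1.36 for CDC2 and 0.980 to 1.28 for SUS6), whereas that of SUS6 at the most reads, 1.07 to 1.17, does not.

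On the xylem side, the expansin EXPA1 (Potri.001G240900), which loosens walls in expanding cells, had 146.2 RPKM in MOMT4-0 and 147.8 RPKM in WT, a log2 ratio of -0.015. The secondary wall cellulose synthases, which lay down cellulose in maturing wood cells, had log2 ratios from -0.063 to 0.052. CesA4 (Potri.002G257900) had 304.8 RPKM in MOMT4-0 and 317.6 RPKM in WT. Of the CesA7 copies, Potri.006G181900 had 170.0 RPKM in MOMT4-0 and 165.4 RPKM in WT, and Potri.018G103900 had 152.1 RPKM in MOMT4-0 and 146.6 RPKM in WT. Of the CesA8 copies, Potri.004G059600 had 217.7 RPKM in MOMT4-0 and 216.0 RPKM in WT, and Potri.011G069600 had 34.3 RPKM in MOMT4-0 and 35.9 RPKM in WT. The median log2 ratio of the 5 was 0.011, 3 of 5 being higher in MOMT4-0. At the fewest reads the counting intervals of all 5 ratios contain 1. At the most reads those of CesA4 (0.937 to 0.983) and Potri.018G103900 (1.002 to 1.07) do not, and they lie on opposite sides of 1.

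The class III HD-ZIP factors, which pattern vascular tissue and are active in and beside the cambium, resembled the cambium regulators in direction. All 8 were lower in MOMT4-0, where 50.9% of all genes were, with log2 ratios from -0.33 to -0.079 and a median of -0.16, and 0 of 8 were 2-fold apart. Potri.009G014500 was furthest apart, with 36.8 RPKM in MOMT4-0 and 46.6 RPKM in WT, followed by Potri.018G045100, with 21.3 RPKM in MOMT4-0 and 26.5 RPKM in WT. Potri.001G372300 had 88.2 RPKM in MOMT4-0 and 103.7 RPKM in WT and overlaps another row, and Potri.006G237500 had 56.4 RPKM in MOMT4-0 and 66.0 RPKM in WT. Of these, Potri.009G014500, Potri.018G045100 and Potri.006G237500 had counting intervals of the ratio wholly under 1 even at the fewest reads, at 0.699 to 0.893, 0.718 to 0.895 and 0.790 to 0.925. The share of all genes with such intervals was not computed. The other 4 class III HD-ZIP genes had log2 ratios between -0.11 and -0.079. Potri.011G098300 had 25.7 RPKM in MOMT4-0 and 27.7 RPKM in WT, and Potri.004G211300 had 14.4 RPKM in MOMT4-0 and 15.5 RPKM in WT. Potri.001G188800 had 83.8 RPKM in MOMT4-0 and 88.5 RPKM in WT, and Potri.003G050100, which overlaps another row, had 52.2 RPKM in MOMT4-0 and 55.2 RPKM in WT.

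Markers of xylem cell death, the last step of vessel and fibre maturation, were the most scattered. The nuclease BFN1 (Potri.011G044500) had 13.0 RPKM in MOMT4-0 and 16.1 RPKM in WT. The protease gene XCP2 had 103.7 RPKM in MOMT4-0 and 133.2 RPKM in WT from Potri.005G256000. From Potri.002G005700 it had 67.9 RPKM in MOMT4-0 and 77.6 RPKM in WT. At the fewest reads the counting interval of Potri.005G256000 was 0.639 to 0.948. Those of BFN1 (0.584 to 1.11) and Potri.002G005700 (0.733 to 1.05) contained 1 there, but not at the most reads (0.681 to 0.954 and 0.807 to 0.949). XCP1 (Potri.004G207600) was instead higher in MOMT4-0, with 5.48 RPKM in MOMT4-0 and 2.26 RPKM in WT. Its log2 ratio of 0.99 stood just under 2-fold only through the pseudocount of 1 RPKM, since the plain ratio was 2.43. XCP1 overlaps another row, and its ratio of 2.43 had an interval of 1.03 to 6.34 at the fewest reads of 21 in MOMT4-0 and 8 in WT. At the most reads, 291 in MOMT4-0 and 111 in WT, the interval was 1.94 to 3.05. The median of the 4 was -0.24, and -0.29 without XCP1.

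**Figure D4:**
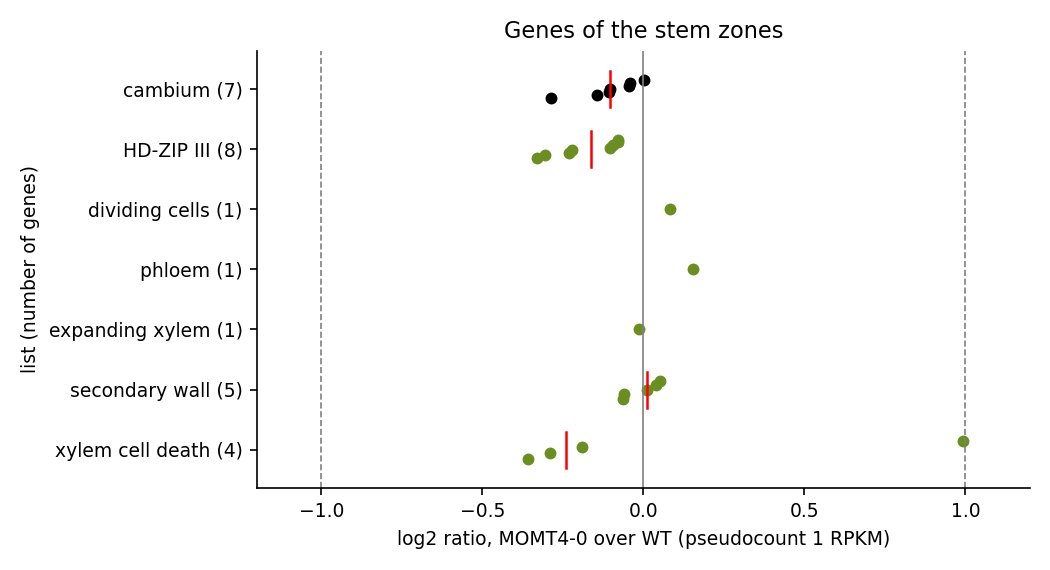
Log2 ratio of MOMT4-0 over WT (pseudocount 1 RPKM) for the cambium regulators (black) and for genes of other stem zones (green), 1 point per gene. Red bars are medians of lists with more than 1 gene and dashed lines mark 2-fold. The cambium regulators have a median of -0.10 and the class III HD-ZIP genes one of -0.16, while the secondary wall cellulose synthases stay between -0.063 and 0.052.

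With the pseudocount of 1 RPKM no zone list had a gene 2-fold apart, where 1.77% of all genes past the filter were. Without a pseudocount XCP1 was past 2-fold, at a ratio of 2.43. The summed levels in MOMT4-0 over WT had ratios of 0.931 for the cambium regulators, 0.881 for the class III HD-ZIP genes, 0.997 for the secondary wall cellulose synthases and 0.829 for the cell death genes. In these single pools the transcripts of the cambium regulators were therefore 6.90% lower in sum in MOMT4-0, while those of the cellulose synthases were near equal in sum. Gene by gene these lists overlapped, with log2 ratios from -0.29 to 0.0011 for the cambium regulators and from -0.063 to 0.052 for the cellulose synthases. No counting interval was computed for the sums. Whether the pools differed in their share of cambial tissue was not tested.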

How the data were processed

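Stem RNA of MOMT4-0 and WT hybrid aspen was sequenced from strand-specific libraries, 1 per line. Per the methods and labels, the authors aligned reads with TopHat and Bowtie to the P. trichocarpa genome from PlantGDB, allowing 1 mismatch, derived counts for each gene and scaled them to RPKM. The deposited table gives 1 RPKM value per gene and library. Of its remaining columns, the identifier, position and status of each row were used, and the results of the authors' Cuffdiff comparison were not. Build and program versions are not given in the sources used here, and positions are the table's, with 1 added to starts.

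Log2 ratios were computed with a pseudocount of 1 RPKM for genes averaging 1 RPKM or more. The 2 rows marked failed were left out. The depth factor between libraries (1.08) was the most frequent ratio of values, shared by 965 rows, and single-exon genes gave the scaling totals and a length of 215 bases taken off. The members and gene lists were chosen with earlier results of these data known. Named were the 7 members and every listed zone gene. Lists to be matched by description (CLE peptides, other WOX and KNOX genes, co-receptors, cyclins, phloem proteins) were not analysed here. With 1 ratio per gene, likeness of pattern to other genes was not computed. Steps were tested on simulated data. Scripts ran under Python 3.11.15 with matplotlib 3.10.9 for figures, SciPy 1.17.1 for intervals, and NumPy 2.4.6 with pandas 2.3.3.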

Additional observations from a re-analysis of the deposited data

How the results depend on the processing

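No paired analysis was possible because each line has 1 library. The 6 alternatives included a pseudocount of 0.1, no pseudocount, rescaling to equal RPKM sums and centring on the median of all genes. The others were no filter and a mean of at least 5 RPKM. These filter settings could not change the regulators' ratios, since the lowest mean of a regulator was 19.1 RPKM. Centring and rescaling moved all the regulators by the same or nearly the same amount, so they tested only a common shift. Within these limits the 42 log2 ratios of the 7 regulators kept their sign and moved by at most 0.017. Their median stayed between -0.11 and -0.087. The count of 0 members apart was the same with a limit of 1.5-fold, which 7.07% of all genes passed. A pseudocount of 1 moved the pair shares by at most 0.321 percentage points. Of the xylem cell death genes, 1 was at least 2-fold apart with a pseudocount of 0.1, against 0 with 1. This was XCP1, at 1.24. Leaving out ARBORKNOX2 or XCP1 was chosen after seeing the data. Shares of reads were not run, since whole reads were bounded but not recovered for these genes. The reads behind a value are known only within limits, and the intervals at the most reads were added after seeing the data.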
